A study of Homo sapiens with 6 samples.

Results

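The imprinted genes MEST, H19, IGF2, PEG3, PEG10, GRB10, CDKN1C, DLK1, MEG3 and PLAGL1, 10 of the 58051 genes measured, were followed in RNA-seq libraries of cells labelled NTera-2 (NT2), the name of an embryonal carcinoma line derived from a testicular tumour. They were chosen by name, with the mimic against scramble differences of these libraries already known, MEST because it stood among the genes that were lowest with mimic. Their differences between the groups are therefore given as descriptions, with no p-value. The libraries fall into 2 groups. In the mimic group, 3 libraries came from cells labelled NT2 and given mimics of piR-36249, a PIWI-interacting RNA, which is a class of small RNA known mainly from germ cells. In the scramble group, 3 libraries came from cells labelled NT2 and given a scrambled control. By genotype label the mimic group is a knockdown of that piRNA, whereas its titles and treatment name mimics, and the titles were followed. Separate cultures are not stated for the libraries of a group. Errors and p-values therefore cover the spread among 3 libraries, which may be technical.

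Imprinted genes are expressed from the copy inherited from only the mother or only the father. At control regions of imprinted clusters, DNA methylation set in the germ line on 1 parental copy, which can be the silent or the active copy of a given gene, is kept through cell division by DNMT1, UHRF1 and the complex of ZFP57 or ZNF445 with TRIM28. MEST, IGF2, PEG3, PEG10, DLK1 and PLAGL1 are known as paternally expressed and H19, CDKN1C and MEG3 as maternally expressed, while GRB10 differs between tissues. Many of these genes act on fetal growth, and germ cell tumours are known for altered imprints. The libraries give the summed RNA of both copies, so nothing here bears on which copy was read.

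The sequences shown here are those of the 3 genes whose values did not overlap between the groups and that were above the filter on low values, because imprinted expression is tied to methylation of CG pairs around the start of such genes. Methylation itself was not measured here, and whether a region shown lies in a control region of its cluster was not tested. RefSeq start regions on GRCh38.p14 cover 250 bases before and 50 bases after a start, and 5 of the 10 genes matched, with 19 such regions. CG pairs are in capitals. The median over all 35116 regions in the RefSeq table was 14 CG pairs. RefSeq gives each of these 3 genes 5 start regions, and the ones shown were picked for their CG pairs, the richest of GRB10, of PLAGL1 and of each MEST promoter area. The others held 13 to 22 CG pairs for MEST, 3 to 44 for GRB10 and 2 to 31 for PLAGL1, so that some lie well below the median. The first line is an upstream MEST start (chr7:130486097-130486396, plus strand) with 22 CG pairs, and the second a downstream MEST start (chr7:130491835-130492134, plus strand) with 25. The GRB10 region shown (chr7:50792825-50793124, minus strand) had 49 and the PLAGL1 region shown (chr6:144008210-144008509, minus strand) had 39.
MEST upstream start: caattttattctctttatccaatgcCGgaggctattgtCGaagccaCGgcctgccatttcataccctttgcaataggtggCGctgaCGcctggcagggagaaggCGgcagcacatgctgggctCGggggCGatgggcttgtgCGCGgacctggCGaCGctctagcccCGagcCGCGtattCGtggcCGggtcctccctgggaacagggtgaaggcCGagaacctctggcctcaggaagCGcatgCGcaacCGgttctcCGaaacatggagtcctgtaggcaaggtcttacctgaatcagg
MEST downstream start: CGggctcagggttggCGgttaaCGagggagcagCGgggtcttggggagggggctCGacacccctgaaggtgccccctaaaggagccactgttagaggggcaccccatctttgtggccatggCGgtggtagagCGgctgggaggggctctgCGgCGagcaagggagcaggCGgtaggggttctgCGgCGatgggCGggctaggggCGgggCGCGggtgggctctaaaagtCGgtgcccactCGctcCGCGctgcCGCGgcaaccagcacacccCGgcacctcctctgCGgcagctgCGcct
GRB10 start: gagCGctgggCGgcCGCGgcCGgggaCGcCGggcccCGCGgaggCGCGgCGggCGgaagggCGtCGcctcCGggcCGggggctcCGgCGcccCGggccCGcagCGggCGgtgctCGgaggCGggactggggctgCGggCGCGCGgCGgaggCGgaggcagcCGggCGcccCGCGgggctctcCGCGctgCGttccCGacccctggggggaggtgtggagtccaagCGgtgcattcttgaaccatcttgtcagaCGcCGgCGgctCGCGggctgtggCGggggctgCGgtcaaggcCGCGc
PLAGL1 start: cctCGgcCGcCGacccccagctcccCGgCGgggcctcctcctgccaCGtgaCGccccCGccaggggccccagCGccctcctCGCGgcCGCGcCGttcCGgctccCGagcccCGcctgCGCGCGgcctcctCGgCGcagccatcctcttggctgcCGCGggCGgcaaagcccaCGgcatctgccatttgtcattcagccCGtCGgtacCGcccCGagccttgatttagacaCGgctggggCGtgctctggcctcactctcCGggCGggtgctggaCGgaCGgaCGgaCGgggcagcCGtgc
The letters TGCCGC, the core bound by ZFP57 when methylated, were searched on both strands, and each match holds 1 of the CG pairs counted above. They occurred 1 time in the upstream and 3 times in the downstream MEST region, 2 times in the PLAGL1 region shown and 0 times in the GRB10 region shown. Another GRB10 region held 1 match, and the other 4 PLAGL1 regions held 0. Of all 35116 regions 16.7% held at least 1 match, and so did 9 of the 19 regions of the 5 matched genes, some of which overlap. The regions shown were picked for CG pairs, which a match needs, so their matches cannot be set against that share. A match describes these letters only.

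MEST also hosts the microRNA gene MIR335 in its introns, on the same strand. Its mature products are shown with the seed, bases 2 to 8, in capitals, because RNA read through these introns would carry them. The MEST values here are scaled to exon length, and its intron RNA was not measured separately.
hsa-miR-335-5p (chr7:130496126-130496148): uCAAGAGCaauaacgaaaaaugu
hsa-miR-335-3p (chr7:130496162-130496183): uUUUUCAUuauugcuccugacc
The MIR335 gene was listed at 0 in all 6 libraries, and mature microRNAs were not measured separately.

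Values are FPKM, fragments scaled for exon length and library depth, so that levels are compared between genes per length. Depth per library was 48.0M to 62.7M recovered reads. The labelled cell type was read against its markers first. Of 10 embryonal carcinoma markers, 9 had a mean under 0.5 FPKM, and NANOG, SOX2, TDGF1, L1TD1 and SALL4 were listed at 0 in every library, while DNMT3B had a mean of 4.14 and DPPA4 of 0.193 FPKM. Of 12 endothelial markers, 9 were above 1 FPKM in every library, led by EGFL7 at a mean of 281.4 and ESAM at 141.1 FPKM. Their summed level was 707.7 to 769.8 FPKM in mimic and 591.9 to 634.6 FPKM in scramble libraries. Of the 12, VWF (0.434 FPKM), CLDN5 (0.110 FPKM) and KDR (0.0192 FPKM) had means under 0.5 FPKM. The epithelial list had 2 of 8 genes above 1 FPKM in every library, KRT18 and KRT8, with CDH1, ESRP1 and GRHL2 listed at 0 and a summed level of 303.1 to 318.5 FPKM with mimic and 293.7 to 323.8 FPKM with scramble. No fibroblast, blood or placental trophoblast marker, with 8 in each list, was above 1 FPKM in every library. The highest means were 0.885 FPKM for FBN1 and 0.485 for LUM of the fibroblast list, 0.0486 for CD14 and 0.0225 for SPI1 of the blood list, and 0.0226 for HLA-G and 0.00966 for CGB3 of the trophoblast list. CD3E and HBA1 of the blood list and CGA and TFAP2C of the trophoblast list were listed at 0. Most defining markers of the labelled line were thus absent or near 0.

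Summed marker levels moved with the groups in 5 of the 6 lists. The embryonal carcinoma sum was 5.27 to 5.48 FPKM with mimic and 3.11 to 3.69 FPKM with scramble, almost all of it DNMT3B. The fibroblast sum was 2.19 to 2.65 FPKM with mimic and 1.34 to 1.5 FPKM with scramble, and the blood sum 0.0829 to 0.193 FPKM with mimic and 0.0407 to 0.0659 FPKM with scramble. The trophoblast sum was lower, 0.0193 to 0.0374 FPKM with mimic and 0.0393 to 0.0660 FPKM with scramble. All 8 blood and all 8 trophoblast markers had a mean under 0.5 FPKM, so the sums of these 2 lists rest on few reads. The part of the marker sums in the differences between the groups was not tested.

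Of the 10 imprinted genes, GRB10, PEG10, PLAGL1, MEG3 and MEST were above 1 FPKM in all 6 libraries, and the other 5 had a mean under 0.5 FPKM. In scramble libraries GRB10 (11.3 ± 0.368 FPKM) and PEG10 (11.1 ± 0.840 FPKM) overlapped at the top, PLAGL1 followed, and MEST (3.98 ± 0.226 FPKM) and MEG3 (3.94 ± 0.0780 FPKM) overlapped below it (SD, n = 3 each). In mimic libraries GRB10 stood above PEG10 without overlap, and MEST was the lowest of the 5 in each library. GRB10, PLAGL1 and MEST had values that did not overlap between the groups, and PEG10 and MEG3 had values that did.

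**Figure D1:**
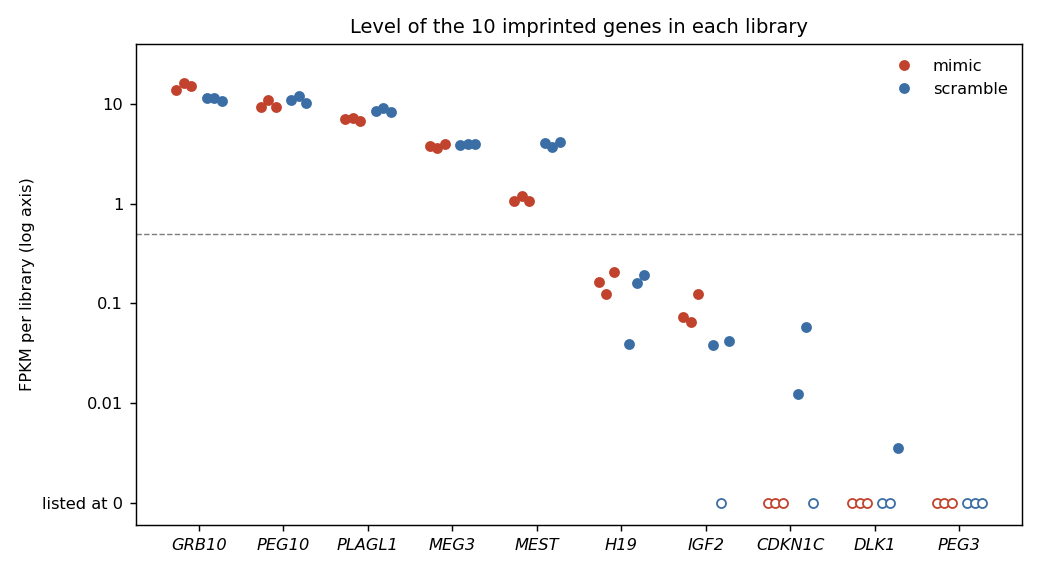
FPKM of the 10 imprinted genes in each of the 6 libraries on a log axis, with mimic left of scramble and genes ordered by their mean. Open points at the bottom are values listed at 0, drawn at an arbitrary height, and the dashed line marks 0.5 FPKM. PEG3 is at 0 in all libraries and MEST lies lower in all 3 mimic libraries.

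MEST, which encodes a membrane protein of the alpha/beta hydrolase fold and is known as a fetal growth gene, had 1.05, 1.20 and 1.06 FPKM in mimic libraries, against 4.05, 3.72 and 4.16 FPKM in scramble libraries. All 3 mimic libraries lay below all scramble libraries. In bulk RNA, fewer cells that express a gene and less RNA per cell cannot be told apart. The mean was 1.11 ± 0.0838 FPKM with mimic and 3.98 ± 0.226 FPKM with scramble (SD, n = 3 each), so that the mimic level was 0.278 of the scramble level. These values rest on about 296, 312 and 244 reads in mimic and 1219, 943 and 1066 reads in scramble libraries. On the log2(FPKM + 1) scale, which understates changes of low genes, the difference was -1.24 (SE 0.061), the 12th lowest of 12912 genes tested. It was -1.84 with a pseudocount of 0.01, and the authors' deposited table gave a log2 fold change of -1.86. MEST (ENSG00000106484) lies on chromosome 7, 130486171 to 130506465, plus strand, GRCh38. Of its exon bases 27.4% lie on exons of antisense genes, and without strand their reads cannot be told apart.

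GRB10, an adaptor that binds and restrains the insulin and IGF1 receptors, moved the other way. It had 13.9, 16.2 and 15.3 FPKM in mimic libraries, against 11.5, 11.5 and 10.8 FPKM in scramble libraries. The lowest mimic library was above the highest scramble library, with means of 15.1 ± 1.14 FPKM for mimic and 11.3 ± 0.368 FPKM for scramble (SD, n = 3 each) and a log2 difference of 0.39 (SE 0.059). GRB10 (ENSG00000106070) is on chromosome 7, 50590063 to 50793462, minus strand, and shares no exon base with another gene.

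PLAGL1, a zinc finger transcription factor that acts on other imprinted genes and on the cell cycle, had 7.12, 7.17 and 6.78 FPKM in mimic libraries, against 8.58, 9.14 and 8.32 FPKM in scramble libraries. All mimic values were lower, and the mimic mean was 0.809 of the scramble mean, a log2 difference of -0.27 (SE 0.049). PLAGL1 (ENSG00000118495, chromosome 6, 143940300 to 144064599, minus strand) shares 3.31% of its exon bases with the paternally expressed RNA HYMAI on the same strand. HYMAI was at 0.114 ± 0.0197 FPKM with mimic and 0.167 ± 0.00914 FPKM with scramble (SD, n = 3 each), below the filter.

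PEG10 and MEG3 differed by less. PEG10, a gene derived from a retrotransposon and known for its role in the placenta, had 9.27, 11.0 and 9.39 FPKM in mimic libraries, against 10.9, 12 and 10.3 FPKM in scramble libraries. The groups overlapped through mimic replicate 2, and the log2 difference was -0.15 (SE 0.076). Without that library the difference was -0.22, and over all single libraries left out it ran from -0.22 to -0.099. MEG3, a long non-coding RNA, had 3.79, 3.66 and 3.98 FPKM in mimic libraries, against 3.85, 3.99 and 3.99 FPKM in scramble libraries, with a log2 difference of -0.04 (SE 0.049). Its groups overlapped and had the narrowest within-group spread on the log2 scale of the 5 genes, 0.038 against 0.113 for PEG10. PEG10 (ENSG00000242265) lies on chromosome 7, 94656325 to 94669695, plus strand, and MEG3 (ENSG00000214548) on chromosome 14, 100779410 to 100861031, plus strand.

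**Figure D2:**
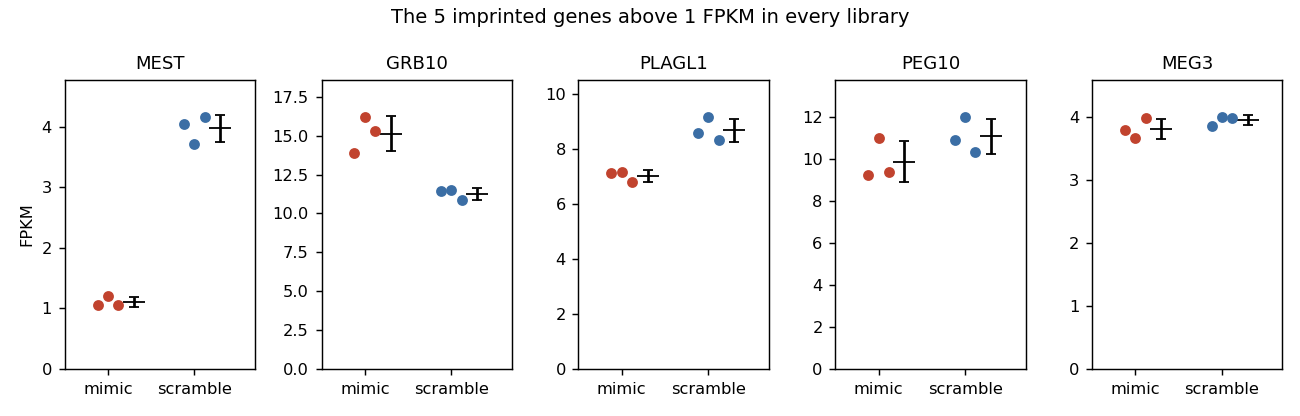
FPKM of MEST, GRB10, PLAGL1, PEG10 and MEG3 in each library (points), with mean and SD of the 3 libraries of a group beside them and each axis starting at 0. MEST is lower in mimic libraries by the widest margin, GRB10 is higher, and PEG10 and MEG3 overlap between the groups.

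Of the 5 tested genes 1 passed higher and 2 passed lower at a limma adjusted p under 0.05 in the fit over all genes, while 35.5% of all tested genes passed, 18.7% higher and 16.8% lower. With the contrast known when the genes were chosen, nothing is read from this count. In 49.2% of all tested genes the values of the groups did not overlap.

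The other 5 genes were at or near 0. H19, a maternally expressed non-coding RNA beside IGF2, had 0.163, 0.124 and 0.207 FPKM in mimic libraries, against 0.0395, 0.161 and 0.192 FPKM in scramble libraries, which is about 28, 19 and 29 reads with mimic and 7, 25 and 30 reads with scramble. The groups overlapped, with scramble replicate 1 lowest. IGF2, a fetal growth factor that signals through IGF1R, had 0.0736, 0.0650 and 0.123 FPKM in mimic libraries, against 0.0382, 0 and 0.0418 FPKM in scramble libraries. All mimic values were higher, on about 30, 25 and 41 reads with mimic and 17, 0 and 16 reads with scramble. The authors' deposited table listed it with a log2 fold change of 1.68.

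Of the exon bases of IGF2, 73.7% are shared with other genes on the same strand, among them the readthrough gene INS-IGF2, which was listed at 0 in all libraries. How reads in shared exons were counted is not given in the sources used here, so the level of IGF2 is uncertain. CDKN1C, a maternally expressed inhibitor of cyclin-dependent kinases, was listed at 0 in all mimic libraries and at 0.0123, 0.0586 and 0 FPKM in scramble libraries, where 3 reads are worth 0.0193 to 0.0229 FPKM. DLK1, a transmembrane protein related to Notch ligands, was listed at 0 in every mimic library and had 1 read, worth 0.00352 FPKM, in scramble replicate 3. PEG3, a zinc finger protein, was listed at 0 in all 6 libraries. At this depth 3 reads on PEG3 are worth 0.0049 to 0.0064 FPKM, which limits counting error only, and 12.9% of its exon bases are shared with ZIM2, also listed at 0. No difference was detectable at this depth in CDKN1C, DLK1 and PEG3, whose values are within a few reads. Whether the IGF2 difference lies in its shared exons was not tested.

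The genes around MEST were read next, since imprinted genes lie in clusters. CEP41, a centrosomal protein gene 43.7 kb from MEST and the nearest protein-coding gene on its left, fell with mimic. It had 0.840, 0.776 and 1.0 FPKM in mimic libraries, against 1.62, 1.7 and 1.63 FPKM in scramble libraries, and the mimic mean was 0.528 of the scramble mean (log2 difference -0.50, SE 0.067, limma adjusted p = 0.0011). COPG2, a coat protein gene that runs antisense to MEST and shares 228 exon bases with it, was at 9.83 ± 0.437 FPKM with mimic and 8.74 ± 0.256 FPKM with scramble (SD, n = 3 each), a log2 difference of 0.15 (limma adjusted p = 0.039). COPG2 missed the threshold under 11 of 18 alternatives. These include other scalings of the values, other filters, and leaving out any library except mimic replicate 1 (limma adjusted p 0.076 to 0.111 for the libraries left out). MKLN1, to the right, was higher in all mimic libraries and did not pass (0.17, limma adjusted p = 0.051), but passed under 7 of 17 alternatives (adjusted p 0.0097 to 0.050). The antisense RNA MESTIT1 had at most 0.0230 FPKM, and TSGA13 and CPA1 were at or near 0.

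**Figure D3:**
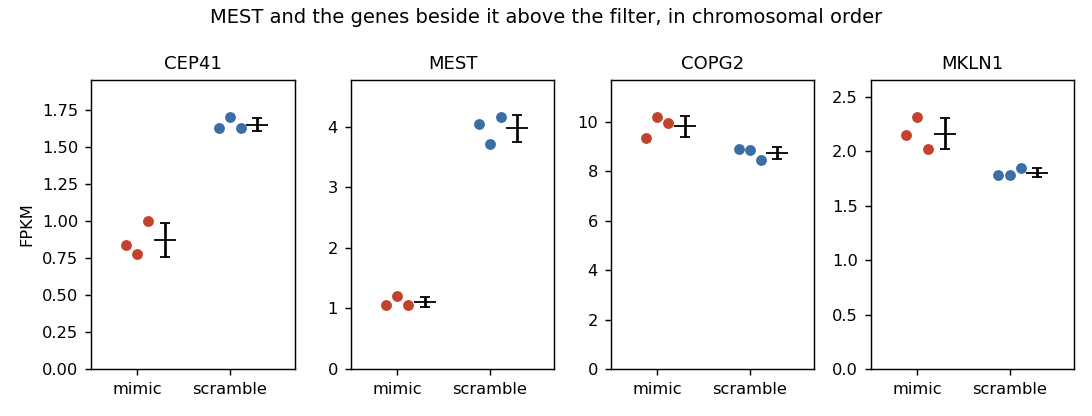
FPKM of MEST and the genes beside or overlapping it that were above the filter on low values, in chromosomal order, with points for libraries and mean and SD beside them. MEST and CEP41 are lower in all mimic libraries, while COPG2 and MKLN1 are not.

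Around each of the 10 genes, protein-coding genes overlapping it, such as COPG2 for MEST, were passed over. The 2 nearest others on each side, outside the imprinted lists used here, came to 33 genes, the readthrough gene INS-IGF2 among them. Of these 16 were listed at 0 in every library and 11 were tested, of which, beside 35.5% over all tested genes, CEP41 fell and STX11, a syntaxin 85.9 kb from PLAGL1, rose (log2 difference 0.33, SE 0.081, limma adjusted p = 0.016). STX11 lost its call without mimic replicate 3 (adjusted p = 0.059), which left 1 of the 11 past the threshold. The median log2 difference of the 11 was 0.015, beside 0.0025 over all tested genes. Highly expressed neighbours that did not pass were SF3B5 (-0.09), NAP1L4 (0.02), TSSC4 (-0.08) and MRPL23 (0.09).

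By the distance between profiles over the 6 libraries, each centred on its own mean of log2(FPKM + 1), the genes most like MEST were AATF (root mean square distance 0.038), AP1B1 (0.065), EIF2D (0.069), RTN3 (0.078) and AMMECR1 (0.079). None of them lies on chromosome 7. AATF, a regulator of transcription and apoptosis, averaged 9.41 ± 0.489 FPKM with mimic and 23.9 ± 1.20 FPKM with scramble, and EIF2D, an initiation factor, 2.87 ± 0.0170 FPKM with mimic and 7.54 ± 0.389 FPKM with scramble (SD, n = 3 each). All 5 were lower in every mimic library, as this measure of likeness requires.

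A list of 52 other genes known as imprinted was read beside the 10. Of the 52, 12 were listed at 0 in all libraries, 15 were tested, and 3 rose and 3 fell. This share is near the 35.5% of all tested genes that passed. NAP1L5, a paternally expressed gene related to nucleosome assembly proteins, rose the most, with 4.06, 3.79 and 3.35 FPKM in mimic libraries, against 2.0, 1.87 and 2.22 FPKM in scramble libraries (log2 difference 0.64, SE 0.074, limma adjusted p = 0.00058). PHLDA2, a maternally expressed gene that limits placental growth, fell the most, with 71.4, 58.3 and 70.7 FPKM in mimic libraries, against 92.7, 92.1 and 102.6 FPKM in scramble libraries (-0.52, SE 0.083, limma adjusted p = 0.0025). Neither gene overlapped between the groups.

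Among paternally expressed genes of that list, INPP5F, a phosphoinositide phosphatase imprinted in a variant transcript, fell to 7.07 ± 0.0558 FPKM with mimic, against 9.61 ± 0.393 FPKM with scramble (SD, n = 3 each). Its log2 difference was -0.39 (limma adjusted p = 0.00049). MCTS2, a retrocopy of MCTS1 whose reads may be shared with its parent gene, fell by 0.35 on the log2 scale (limma adjusted p = 0.0097). SGCE, which shares a promoter region with PEG10, was at 12.5 ± 0.381 FPKM with mimic and 12.1 ± 0.337 FPKM with scramble and did not pass (0.04). Of the maternally expressed genes OSBPL5, a lipid transfer protein gene, rose (0.34, SE 0.061, limma adjusted p = 0.0043), and so did the cell cycle inhibitor RB1 (0.24, limma adjusted p = 0.022). RB1 missed the threshold when mimic replicate 1, mimic replicate 2 or scramble replicate 3 was left out (adjusted p 0.059 to 0.067). GNAS, the G protein subunit gene, had 56.0 ± 2.46 FPKM with mimic and 56.0 ± 1.23 FPKM with scramble and did not pass, nor did IGF2R (0.05) and CPA4 (-0.16), although CPA4 passed without scramble replicate 3 (limma adjusted p = 0.022).

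By parental class, 1 of 5 tested paternally expressed genes rose and 2 fell, and 2 of 10 tested maternally expressed genes rose and 1 fell. The 15 tested genes had a median log2 difference of 0.028, beside 0.0025 over all tested genes. The 12 genes listed at 0 included NDN and MAGEL2 of the Prader-Willi region, ZIM2 beside PEG3, and KCNQ1 and KLF14. SNRPN had at most 0.107 FPKM and SNURF at most 0.0177 FPKM, and the level of reads shared by these overlapping genes was not measured.

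**Figure D4:**
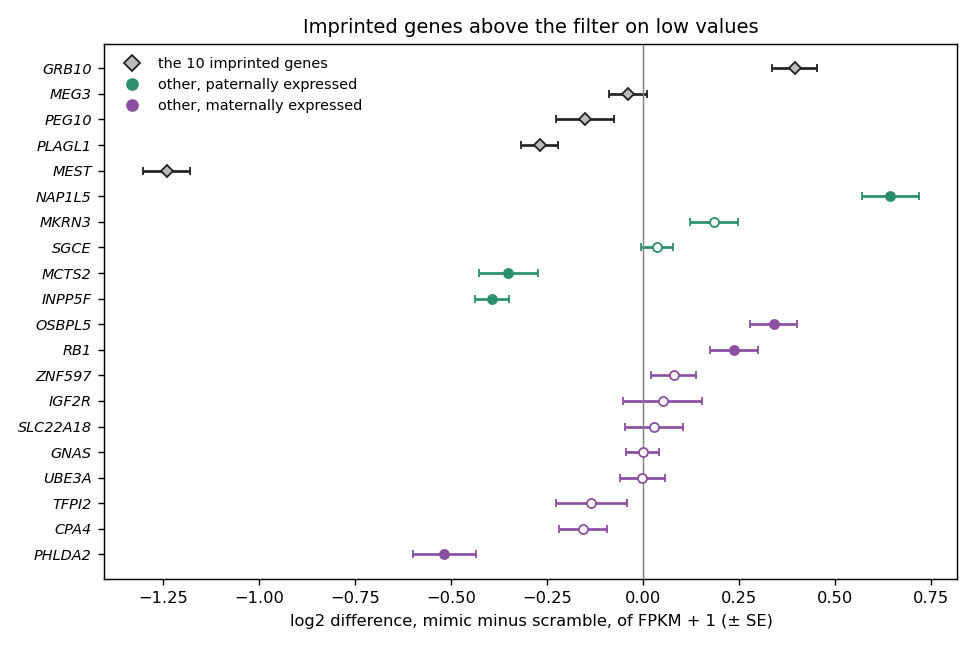
Log2 difference, mimic minus scramble, of FPKM + 1 with its SE for the imprinted genes above the filter on low values. The 10 genes are grey diamonds with no test shown, filled circles among the others passed an adjusted p of 0.05 in the fit over all genes, and both parental classes hold values on either side of 0.

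Of 20 genes that keep or erase imprints, 12 were tested, 2 rose and 3 fell. Over all tested genes 18.7% passed higher and 16.8% lower, and 5 of 12 is near that background. TRIM28, the corepressor recruited by ZFP57 and ZNF445, fell to 166.4 ± 3.66 FPKM with mimic, against 222.0 ± 3.92 FPKM with scramble (SD, n = 3 each), a log2 difference of -0.41 (limma adjusted p = 0.00019). The maintenance methyltransferase DNMT1 (-0.33, limma adjusted p = 0.00076) and its partner UHRF1 (-0.22, limma adjusted p = 0.0080) fell as well. The de novo methyltransferases rose, DNMT3B with 5.08, 5.24 and 5.13 FPKM in mimic libraries, against 3.37, 2.82 and 3.18 FPKM in scramble libraries (0.58, SE 0.061, limma adjusted p = 0.00037), and DNMT3A by 0.20 (limma adjusted p = 0.023). DNMT3A missed the threshold when any library except mimic replicate 3 was left out (adjusted p 0.050 to 0.071).

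The insulator protein CTCF (0.0075), KDM1B (0.10), SMCHD1 (0.05), TET3 (-0.22), ZNF445 (-0.05) and the histone methyltransferase SETDB1 (-0.04) did not pass, and TET3 passed without scramble replicate 3 (limma adjusted p = 0.014). ZFP57 itself had at most 0.121 FPKM. TET1, a dioxygenase that oxidizes methylated cytosine, was below the filter. It had 0.362, 0.331 and 0.305 FPKM in mimic libraries, against 0.142, 0.179 and 0.153 FPKM in scramble libraries. The authors' deposited table gave TET1 a log2 fold change of 1.07. With a filter of 0.1 FPKM, 13 genes of the list were tested, and 3 passed higher and 3 lower. The median of the 12 tested genes was -0.018, beside 0.0025 over all tested genes.

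IGF2, GRB10 and IGF2R act around the IGF1 and insulin receptors, so 24 further genes of that pathway were read. Of 15 tested, 6 rose and none fell at an adjusted p under 0.05 with limma, beside 18.7% higher and 16.8% lower over all tested genes. At an unadjusted p under 0.05, 7 were higher and 0 lower, and voom called 8 higher and 1 lower. The receptor IGF1R had 7.32 ± 0.686 FPKM with mimic and 5.94 ± 0.509 FPKM with scramble (SD, n = 3 each; 0.26, limma adjusted p = 0.033). The binding proteins IGFBP4 (0.43, limma adjusted p = 0.0017) and IGFBP6 (0.19, limma adjusted p = 0.0081), which hold IGFs outside the cell, rose. So did the adaptor SHC1 (0.18, limma adjusted p = 0.0073), the ubiquitin ligase NEDD4, a partner of GRB10 (0.26, limma adjusted p = 0.031), and IGF2BP3, an RNA-binding protein of IGF2 mRNA (0.27, limma adjusted p = 0.031).

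The count of 6 went to 3 without mimic replicate 2 and to 3 without scramble replicate 1. Without scramble replicate 3, 3 genes passed higher and 1 lower. IGF1R and IGF2BP3 missed the threshold when mimic replicate 2, mimic replicate 3, scramble replicate 1 or scramble replicate 3 was left out, with adjusted p 0.052 to 0.085. NEDD4 missed it when mimic replicate 1, mimic replicate 2, scramble replicate 1 or scramble replicate 3 was left out, with adjusted p 0.083 to 0.088. IGF2BP2 (-0.02), IGF2BP1 (0.09), IGFBP7 (-0.0043) and GRB14 (-0.02) did not pass. IGF1, IRS4 and IGFBP5 were listed at 0 in all libraries. The median log2 difference of the 15 was 0.16, beside 0.0025 over all tested genes.

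CDKN1C was near 0, so 11 genes of the CIP and KIP family with its kinases and cyclins were read. CCND2 had at most 0.00529 FPKM and was not tested. Of the 10 tested, 2 rose and 3 fell, with 35.5% of all tested genes passing in either direction. CCND1, the G1 cyclin D1, fell to 144.6 ± 6.51 FPKM with mimic, against 234.0 ± 14.3 FPKM with scramble (SD, n = 3 each; -0.69, limma adjusted p = 0.00012). Its kinase CDK4 (-0.42, limma adjusted p = 0.00012) and CDK2 (-0.19, limma adjusted p = 0.0087) fell, whereas CDK6 rose (0.38, limma adjusted p = 0.0059). The inhibitor CDKN1A, or p21, rose by a small amount (0.16, limma adjusted p = 0.024). It missed the threshold when mimic replicate 3 or any 1 scramble library was left out (adjusted p 0.053 to 0.073). CDKN1B (0.08), CCNA2 (-0.10), CCND3 (0.12) and CCNE1 (-0.04) did not pass. The median of the 10 was 0.018, beside 0.0025 over all tested genes.

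**Figure D5:**
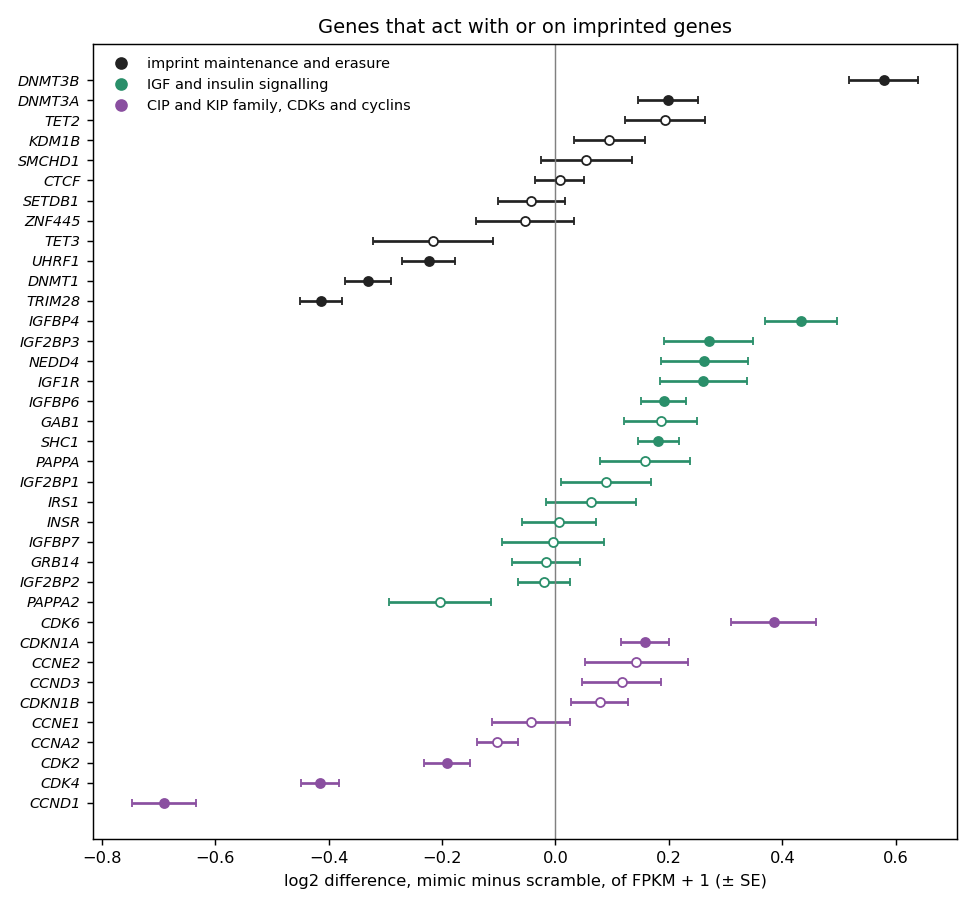
Log2 difference, mimic minus scramble, of FPKM + 1 with its SE for tested genes of imprint maintenance and erasure, of IGF and insulin signalling, and of the CIP and KIP family with its kinases and cyclins. Filled points passed an adjusted p of 0.05. DNMT3B at 0.58 and CCND1 at -0.69 are the outermost values, and the filled IGF pathway points are all above 0.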

How the data were processed

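The authors deposited FPKM values for 58051 Ensembl genes in 6 libraries, and a table of 401 genes with a signal (mean of normalized counts), log2 fold changes with SE, a test score and p-values, per the file headers. The sign of these fold changes matched mimic minus scramble FPKM for all 401 genes, and the score ran opposite for all 401. The submitters' processing notes name HISAT2 2.1.0, Trimmomatic 0.39, DESeq2 1.26.0 and featureCounts 2.0.1 with GRCh38. Annotation release and strand use were not given in the sources used here.

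Symbols, positions and exon lengths came from GENCODE 29 (GRCh38) and a symbol table, and 57447 identifiers matched. FPKM times exon length gave whole multiples of a step for 96.2% to 96.5% of low values within 0.02 reads, which gave the depths and reads printed. Reads of genes whose length differs between annotations are approximate, and mates of a pair may have been counted as separate reads. Over 400 genes the median of recovered reads divided by the authors' mean counts was 0.999. Intervals and floors cover counting error only.

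FPKM values are not counts. The 12912 genes averaging 0.5 FPKM or more entered a limma 3.58.1 fit in R 4.3.3 on log2(FPKM + 1), with trended variance, no covariate and Benjamini-Hochberg adjustment at 0.05. The labels name no batch. The fit was tested on simulated data. The 10 genes and all lists were chosen with earlier results of these data known. Named genes are the 10, up to 8 called genes of each other list, up to 4 others above 1 FPKM in every library by mean, the 5 profiles nearest to MEST, the highest 2 markers of a list, and those listed at 0, of which 1 is not reported here. COPG2, MKLN1, CPA1, TSGA13, MESTIT1, HYMAI, ZFP57, ZNF445, SETDB1, CCND2, TET1, SNRPN, SNURF, KDR, CLDN5 and VWF were named after their values were seen. Tables were computed in Python 3.11.15.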

Additional observations from a re-analysis of the deposited data

How the results depend on the processing

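In all, 18 alternatives were run, 6 of which left out a library. The log2 difference of MEST, -1.24 as reported, was -1.76 at pseudocount 0.1 and -1.84 at 0.01, which shrink low values less. It was -1.60 on TPM values and -1.85 by voom using recovered reads, for which the cause was not tested. Leaving out a library gave -1.28 to -1.22. With a filter of 5 FPKM, MEST was no longer tested, and 2 of 6 other imprinted genes, 3 of 5 imprint maintenance genes and 0 of 5 neighbour genes passed limma (0 of these at an unadjusted p under 0.05). That filter left out CEP41 and STX11, the neighbours called in the reported fit, so this count says nothing on whether their calls are stable. The neighbours still tested had not passed in the reported fit either. The filter also left out the called genes NAP1L5, OSBPL5, MCTS2, RB1, DNMT3A and DNMT3B. Voom called 3 neighbours. Without a filter, 3 IGF pathway genes and 1 neighbour passed, against 6 and 2, and the cause was not tested. With single libraries left out, IGF pathway calls numbered 3 to 6 and neighbour calls 1 to 2.

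With the replicate number as a block, 4609 of 12912 genes passed, against 4584, and 6 other imprinted genes as before. COPG2 lost its call (adjusted p = 0.057). The numbers are not shown to pair the libraries: deviations from the group means of libraries with the same number correlated at -0.062, 0.241 and 0.054. Among the named list genes, COPG2 and the 5 profiles nearest to MEST, which were picked for their fall, 30 were called, and 22 of these kept their call under every alternative that tested them. No called gene among them changed direction. With 3 libraries a group, small differences stay uncertain, and genes below 0.5 FPKM rest on few reads.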
